A study of Mus musculus with 14 samples.

Results

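The genes described here are p53 and its damage response targets: Trp53, Mdm2, Cdkn1a, Ccng1, Gadd45a, Gadd45b and Gadd45g. Every probe set whose array annotation gives one of these 7 symbols alone was taken, and probe sets with several symbols were not used. This found 8 probe sets for 6 genes, out of 12422 probe sets and 8251 genes in all. For Trp53 itself no such probe set was found, so the level of p53 mRNA was not analysed here. Expression was measured on 14 arrays of cells dissociated from mouse cerebellum, in 3 stages of mice heterozygous for patched (Ptch1), the receptor that restrains hedgehog signalling. The stages are granule cell precursors (GCP) from mice aged 7 days (n = 4), preneoplastic cells, called pretumor, from mice aged 6 weeks (n = 5), and tumor cells from mice aged 10 to 25 weeks with signs of medulloblastoma (n = 5). Per the labels, the mice were kept by breeding with 129X1/SvJ animals, and the cells used for RNA came from a density gradient and were not sorted.

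All stages carry the same genotype, and none is wild type, so no comparison shows the effect of the patched allele. Age and stage differ together and cannot be told apart. Whether the numbered samples of a stage are different animals is not stated. The p-values therefore reflect only how far these samples spread, part of which could be technical. The suspension holds several cell types, and fewer cells of a type and less RNA per cell cannot be told apart in such samples. Of the markers of granule cell precursors, Zic1 stood at 12.74 ± 0.11, 12.59 ± 0.16 and 12.64 ± 0.21 log2 intensity in GCP, pretumor and tumor samples (SD). Atoh1, which defines these precursors, stood near background in every stage, at 1.95 ± 0.10, 1.90 ± 0.20 and 2.01 ± 0.17. The 2 called genes of that marker list fell in both later stages. Pax6, a transcription factor of these precursors, had a log2 difference of -1.75 in pretumor and -2.23 in tumor samples against GCP (limma adjusted p = 0.0108 and 0.00214). Neurod1, a factor of their differentiation, had differences of -1.37 and -1.25 (limma adjusted p = 0.00706 and 0.0109). None of the other genes of the list was called. Mycn had differences of 0.75 in pretumor and 0.15 in tumor samples against GCP, and Gli1, near background, had 0.48 and 0.43. For both, every pretumor value lay above every GCP value. Zic2 had differences of -0.21 and -0.48, and Gabra6, near background, had 0.0075 and -0.34. All these markers were named after their values were seen.

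The p53 protein is a transcription factor that is held at low levels by Mdm2, a ubiquitin ligase that marks it for degradation. DNA damage and other stress release p53 from Mdm2, and p53 then switches on genes that stop the cell cycle, repair DNA or kill the cell. Mdm2 is itself a p53 target, which closes a feedback loop. Cdkn1a encodes p21, an inhibitor of cyclin-dependent kinases and the best known arrest target, and Ccng1 encodes cyclin G1, another direct target. The Gadd45 genes encode 3 small related proteins that bind p21, PCNA, Cdk1 and the kinase Map3k4. Gadd45a is a p53 target, while Gadd45b and Gadd45g are better known as genes switched on by cytokines and stress. In the cerebellum of patched heterozygous mice, loss of p53 is known to speed the formation of medulloblastoma.

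Promoter sequences of 5 members are shown because motifs of the p53 and stress pathways can be read in them. Each is the stretch of 250 bases before an annotated transcription start, 5′ to 3′, from RefSeq on GRCm38.p6. RefSeq windows were found for all 7 genes, with 2 starts for Cdkn1a. Capitals mark matches, on either strand, to the paired p53 core (the letters CATG at both ends with any 6 bases between), the octamer ATTTGCAT, the CCAAT box, the E-box CACGTG and the TATA element TATAAA. No capitalised matches overlap each other.

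Cdkn1a, upstream start (chr17:29090729-29090978, plus strand): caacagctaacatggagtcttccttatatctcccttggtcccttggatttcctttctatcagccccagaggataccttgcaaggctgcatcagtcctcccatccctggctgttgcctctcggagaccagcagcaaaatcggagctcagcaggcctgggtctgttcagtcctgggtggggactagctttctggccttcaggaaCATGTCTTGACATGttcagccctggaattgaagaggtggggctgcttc

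Mdm2 (chr10:117710759-117711008, minus strand): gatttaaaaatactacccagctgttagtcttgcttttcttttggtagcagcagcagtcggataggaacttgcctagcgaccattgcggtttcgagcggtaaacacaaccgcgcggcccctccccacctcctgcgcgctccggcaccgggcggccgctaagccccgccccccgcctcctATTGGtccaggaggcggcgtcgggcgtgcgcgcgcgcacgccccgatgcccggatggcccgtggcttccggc

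Gadd45a (chr6:67037408-67037657, minus strand): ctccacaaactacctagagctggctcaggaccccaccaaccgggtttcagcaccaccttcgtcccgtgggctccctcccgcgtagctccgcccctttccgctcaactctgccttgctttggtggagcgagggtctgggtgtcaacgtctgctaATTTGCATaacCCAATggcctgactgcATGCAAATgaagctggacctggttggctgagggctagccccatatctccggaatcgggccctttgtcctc

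Gadd45b (chr10:80929841-80930090, plus strand): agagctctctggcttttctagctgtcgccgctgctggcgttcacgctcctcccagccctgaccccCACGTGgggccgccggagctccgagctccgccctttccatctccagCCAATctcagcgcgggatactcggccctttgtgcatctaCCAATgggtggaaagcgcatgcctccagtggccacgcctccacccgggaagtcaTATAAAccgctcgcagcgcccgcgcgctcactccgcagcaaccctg

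Gadd45g (chr13:51846425-51846674, plus strand): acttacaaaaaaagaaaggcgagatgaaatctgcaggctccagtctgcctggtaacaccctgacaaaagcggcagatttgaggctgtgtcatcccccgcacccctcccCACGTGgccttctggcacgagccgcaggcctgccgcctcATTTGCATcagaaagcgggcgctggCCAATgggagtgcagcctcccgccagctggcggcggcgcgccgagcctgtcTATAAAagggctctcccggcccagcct

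The paired p53 core was found in 161 of 32851 promoter windows of this length (0.490%). Among the members it was found only before the upstream start of Cdkn1a, from 48 to 35 bases before it. With 3 bases on either side the stretch is the following, at chr17:29090928-29090947 on the plus strand, with the core in capitals.

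Cdkn1a paired p53 core: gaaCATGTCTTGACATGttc

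Its last base lies 2822 bases before the second annotated start of Cdkn1a. One match to the full p53 half-site consensus, found in 7.13% of all windows, overlaps this core. Single half-site matches also lie before Trp53, Mdm2, Ccng1 and Gadd45a, and Cdkn1a has 1 more. Gadd45a holds 2 octamers and Gadd45g holds 1, a motif found in 1.60% of windows. Gadd45b and Gadd45g each hold 1 E-box (6.02% of windows) and 1 TATAAA (12.4%), and all 3 Gadd45 promoters hold CCAAT (33.8%). These matches describe letters in the windows, and p53 sites elsewhere in these genes, such as those inside Mdm2, lie outside them.

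**Figure D1:**
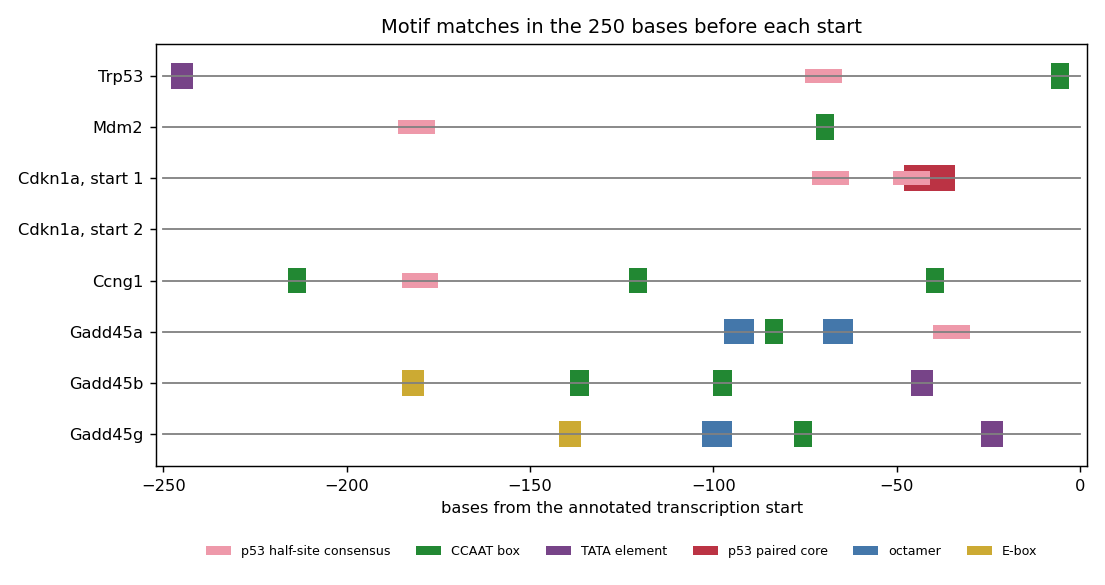
Motif matches in the 250 bases before each annotated start of the 7 genes, with distance from the start in bases on the x axis and 1 line per start. Cdkn1a alone holds the paired p53 core, and its second start holds no match to any of the motifs searched.

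Mdm2 and Gadd45b were the members that passed the test, both higher after the GCP stage. The differences of 7 of the 8 probe sets were positive in pretumor minus GCP and likewise in tumor minus GCP. limma called 2 of the 8 probe sets higher in pretumor than in GCP samples, Mdm2 and 1 of those for Gadd45b, and 0 lower, against 1.67% of all probe sets called higher and 2.69% lower. In tumor against GCP it called 1 of 8 higher, Gadd45b, and 0 lower, against 1.41% of all probe sets called higher and 3.19% lower. In tumor against pretumor it called 0 of 8, against 0.998% of all probe sets called in either direction. At an unadjusted p under 0.05 these counts were 3, 6 and 2 of 8, against 15.4%, 15.4% and 11.3% of all probe sets. The median log2 difference of the 8 probe sets was 0.45 in pretumor minus GCP, 0.87 in tumor minus GCP and 0.38 in tumor minus pretumor. Over all probe sets it was -0.0052, 0.0024 and 0.015. All pretumor values lay above all GCP values for 3 of 8 probe sets, against 4.65% of all, and all tumor values above all GCP values for 2 of 8, against 3.28%. No member had tumor and pretumor values that did not overlap, against 2.62% of all probe sets. The threshold for a call was an adjusted p below 0.05, by Benjamini-Hochberg over 12422 probe sets. Comparisons with GCP share the same 4 arrays.

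**Figure D2:**
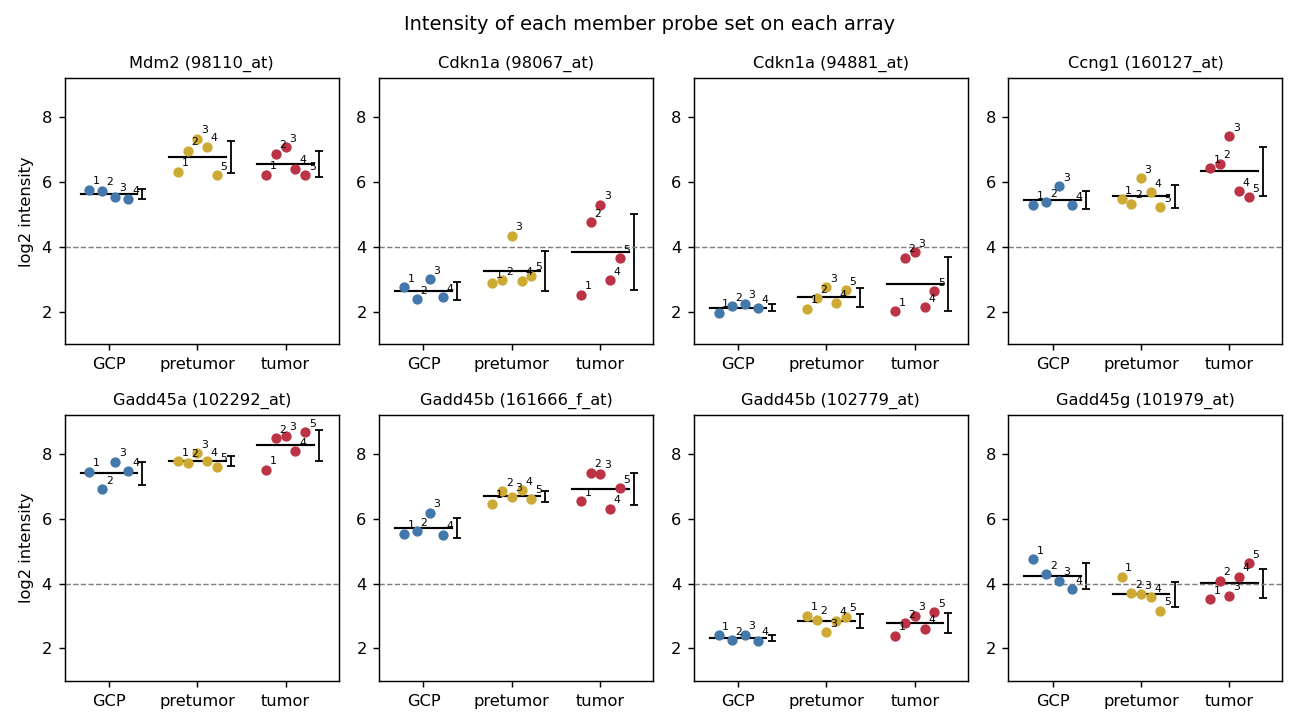
Log2 intensity of each member probe set (y axis) on each array, grouped by stage, with points numbered by replicate, horizontal lines for group means and bars for SD. The dashed line marks log2 intensity 4, below which values form a low band. Mdm2 and Gadd45b (161666_f_at) show GCP points below all other points, while Cdkn1a lies mostly in the low band.

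Mdm2, the inhibitor and target of p53, was raised in pretumor cells. Its probe set 98110_at (gene on chromosome 10, 117688875 to 117710758, GRCm38.p6) had intensities of 54.4, 53.4, 47.0 and 44.2 in GCP samples 1 to 4. The 5 pretumor samples had 80.1, 125, 162, 136 and 73.9. The 5 tumor samples had 74.7, 117, 135, 85.4 and 74.0. Every pretumor and every tumor sample thus stood above every GCP sample, while pretumor and tumor samples overlapped. As log2 means the stages stood at 5.63 ± 0.14, 6.79 ± 0.50 and 6.56 ± 0.39 (SD). The rise in pretumor samples was 2.23-fold (log2 difference 1.15, SE 0.25, limma adjusted p = 0.0226). In tumor against GCP the log2 difference was 0.93 (SE 0.25, 95% interval 0.38 to 1.48), a 1.90-fold higher level that narrowly missed the threshold in limma (adjusted p = 0.0632). In tumor against pretumor it was -0.23 (95% interval -0.74 to 0.29, limma adjusted p = 0.786). The pretumor call ended in limma without any 1 of GCP 2, GCP 3, GCP 4, pretumor 2 or pretumor 4 (adjusted p = 0.0527 to 0.0731), and over 24 alternatives the limma adjusted p lay between 0.00106 and 0.191. That call also ended in limma with a floor of 16 (adjusted p = 0.0554). The tumor difference passed in limma under 7 of 24 alternatives, over which its adjusted p lay between 0.021 and 0.352. Among them were quantile normalisation (adjusted p = 0.0465), the filter on dim probe sets (0.021), the trended prior (0.0492), array weights (0.0299) and leaving out pretumor 3 (0.047) or pretumor 5 (0.0471).

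Cdkn1a, which encodes p21, had low signal in most samples and was measurable in a few. Its probe set 98067_at (gene on chromosome 17, 29090979 to 29100722) had intensities of 6.75, 5.23, 8.00 and 5.47 in GCP samples. Pretumor samples had 7.40, 7.82, 20.4, 7.75 and 8.66, and tumor samples had 5.74, 27.1, 39.4, 7.85 and 12.6. Only pretumor 3, tumor 2 and tumor 3 exceeded 16, the limit of the low band in which 70.5% of all values lie. The other probe set, 94881_at, stayed below 16 on all 14 arrays. It had 3.94, 4.51, 4.76 and 4.33 in GCP samples, 4.26, 5.33, 6.80, 4.81 and 6.37 in pretumor samples and 4.03, 12.7, 14.3, 4.43 and 6.20 in tumor samples. Both probe sets were highest in the same pretumor sample and in the same pair of tumor samples. For 98067_at the log2 difference was 0.61 in pretumor minus GCP (95% interval -0.54 to 1.75), 1.19 in tumor minus GCP (0.046 to 2.34) and 0.59 in tumor minus pretumor (-0.49 to 1.67). None passed in limma (adjusted p = 0.709, 0.298 and 0.733), and the groups overlapped. No fold is given, since the means of all stages lie in the low band.

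Ccng1, which encodes cyclin G1, was highest in a part of the tumor samples. Its probe set 160127_at (chromosome 11, 40748552 to 40755309) had intensities of 39.5, 41.9, 58.3 and 38.8 in GCP samples. Pretumor samples had 44.4, 40.5, 69.3, 51.4 and 37.5, and tumor samples had 86.0, 94.7, 171, 52.6 and 46.5. Tumor 1, 2 and 3 stood above every other sample, and tumor 4 and 5 lay within the range of the earlier stages. The log2 means were 5.46 ± 0.28, 5.57 ± 0.35 and 6.33 ± 0.75 (SD). The log2 difference was 0.87 in tumor minus GCP (95% interval 0.14 to 1.61, limma adjusted p = 0.213) and 0.77 in tumor minus pretumor (0.074 to 1.46, limma adjusted p = 0.374). In pretumor minus GCP it was 0.11 (-0.63 to 0.84, limma adjusted p = 0.974), and -0.029 without pretumor 3.

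Gadd45a, known from other work as a p53 target, had its highest mean in tumor samples and narrowly missed the threshold. Its probe set 102292_at (chromosome 6, 67035096 to 67037407) had intensities of 175, 121, 218 and 177 in GCP samples. Pretumor samples had 219, 213, 260, 220 and 196, and tumor samples had 184, 359, 379, 271 and 407. All tumor samples but tumor 1 stood above every pretumor and every GCP sample. The log2 means were 7.40 ± 0.35, 7.78 ± 0.15 and 8.27 ± 0.47 (SD). In tumor minus GCP the log2 difference was 0.86 (SE 0.23, 95% interval 0.37 to 1.36, limma adjusted p = 0.0548), a 1.82-fold higher level. Without tumor 1 it was 1.05 and passed in limma (adjusted p = 0.00739), as it did with the filter on dim probe sets (0.0191), the trended prior (0.0433) and array weights (0.0131), among 24 alternatives with adjusted p between 0.00739 and 0.237. In pretumor minus GCP it was 0.38 (-0.11 to 0.88, limma adjusted p = 0.494) and in tumor minus pretumor 0.48 (0.013 to 0.95, limma adjusted p = 0.421).

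Gadd45b, a family member induced by cytokines and stress, was raised in both later stages. Its probe set 161666_f_at (gene on chromosome 10, 80930091 to 80932204) had intensities of 46.6, 49.3, 73.2 and 45.5 in GCP samples. Pretumor samples had 88.8, 116, 103, 118 and 98.5, and tumor samples had 93.6, 172, 169, 79.2 and 124. Every pretumor and every tumor sample stood above every GCP sample. The log2 means were 5.72 ± 0.32, 6.70 ± 0.17 and 6.93 ± 0.50 (SD). The rise was 1.98-fold in pretumor against GCP (log2 difference 0.99, SE 0.23, limma adjusted p = 0.0334) and 2.31-fold in tumor against GCP (1.21, SE 0.23, limma adjusted p = 0.011). In tumor minus pretumor the log2 difference was 0.22 (95% interval -0.26 to 0.70, limma adjusted p = 0.767). The pretumor call ended in limma without any 1 of GCP 1, GCP 2, GCP 4, pretumor 2, pretumor 3, pretumor 4 or pretumor 5 (adjusted p = 0.0574 to 0.102), and over 24 alternatives the limma adjusted p lay between 0.00264 and 0.178. The tumor call held in limma without each array in turn (adjusted p = 0.005 to 0.0433) and ended with the compared groups fitted alone (adjusted p = 0.0708) and with the GCP arrays averaged in pairs (adjusted p = 0.0827).

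The suffix of that probe set marks probes that can match more than 1 sequence of a family, so part of its signal may come from similar transcripts. The other Gadd45b probe set, 102779_at, lay in the low band on all 14 arrays. It had intensities of 5.28, 4.78, 5.37 and 4.71 in GCP samples, 8.10, 7.42, 5.63, 7.25 and 7.92 in pretumor samples and 5.26, 6.91, 8.08, 6.12 and 8.72 in tumor samples. All pretumor samples stood above all GCP samples, and all tumor samples but tumor 1 did. Its log2 difference was 0.52 in pretumor minus GCP (95% interval 0.20 to 0.84, limma adjusted p = 0.0713) and 0.46 in tumor minus GCP (0.14 to 0.77, limma adjusted p = 0.115). Without tumor 1 both passed in limma (adjusted p = 0.0381 and 0.041), and without pretumor 3 the first did (adjusted p = 0.0316).

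Gadd45g, the third member of the family, was the only gene of the set with a lower mean in both later stages than in GCP. Its probe set 101979_at (chromosome 13, 51846675 to 51848475) lay at the edge of the low band, with 7 of 14 arrays below 16. It had intensities of 27.0, 19.6, 17.0 and 14.2 in GCP samples, 18.5, 13.1, 12.7, 12.0 and 8.97 in pretumor samples and 11.5, 17.0, 12.4, 18.5 and 24.7 in tumor samples. The 3 stages overlapped. The log2 difference was -0.57 in pretumor minus GCP (95% interval -1.15 to 0.00099, limma adjusted p = 0.326) and -0.22 in tumor minus GCP (-0.80 to 0.35, limma adjusted p = 0.825).

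**Figure D3:**
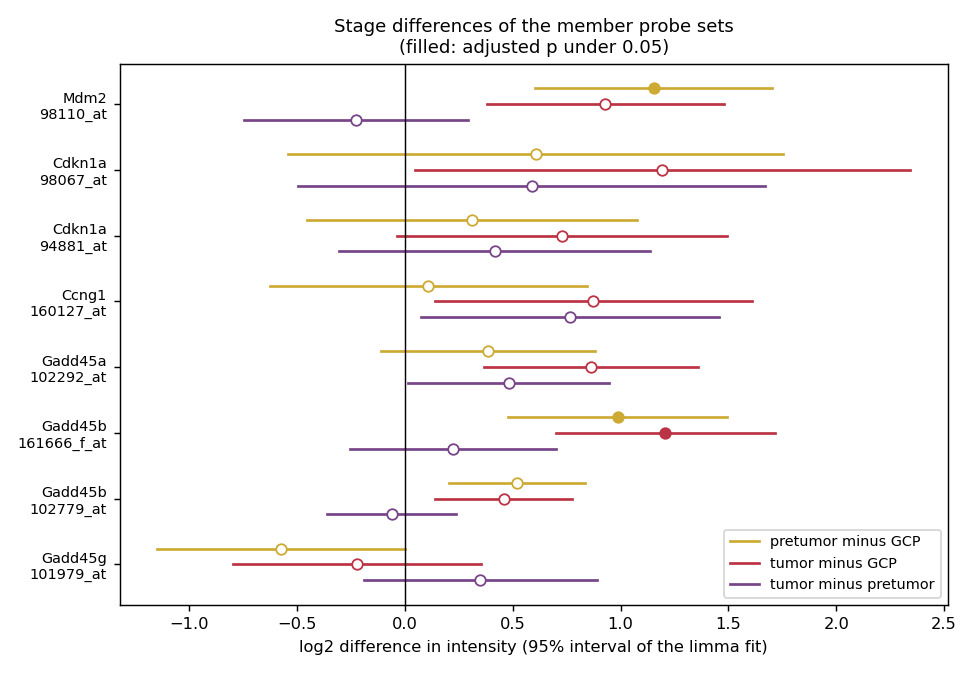
Log2 differences in intensity between stages (x axis) for the 8 member probe sets (y axis), with 95% intervals of the limma fit, and filled points where the adjusted p was under 0.05. The filled points are Mdm2 in pretumor minus GCP (1.15) and Gadd45b in both comparisons with GCP (0.99 for pretumor, 1.21 for tumor).

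Within a stage, several members were high in the same samples. GCP 3 had the highest value of its stage for 6 of the 8 probe sets, all but those of Mdm2 and Gadd45g. Cdkn1a and Gadd45b count there with both their probe sets. Pretumor 3 had the highest value of its stage for 5 of 8, those of Mdm2, Cdkn1a, Ccng1 and Gadd45a. Tumor 3 had it for 4 of 8, those of Mdm2, Cdkn1a and Ccng1. Tumor 1 had the lowest value of its stage for 5 of 8. The share of all probe sets that were highest or lowest in these samples was not computed, so these counts are not particular to the members. Deviations from stage means were also taken over all probe sets with a mean of 16 or more. On their first axis (36.4% of their variance) pretumor 3 and tumor 2 lay furthest out, at 23.6 and 25.0, with tumor 3 at -2.66 and GCP 3 at 10.5. By mean correlation with its stage over all probe sets, tumor 3 (0.98492) stood almost as low as tumor 2 (0.98473). The other tumor samples had 0.98814 to 0.98945. Leaving out pretumor 3 and tumor 2 together gave 3, 1 and 0 member probe sets called in the 3 comparisons, with the dim Gadd45b probe set as the one added. The mean log2 level of 12 microglia and macrophage markers was 4.20 in tumor 3, against 3.46 to 3.84 in the other tumor samples. The mean of 11 markers of dividing cells was 7.06 in tumor 3, against 7.41 to 7.61 in the other tumor samples. Their part in the values of tumor 3 was not tested.

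**Figure D4:**
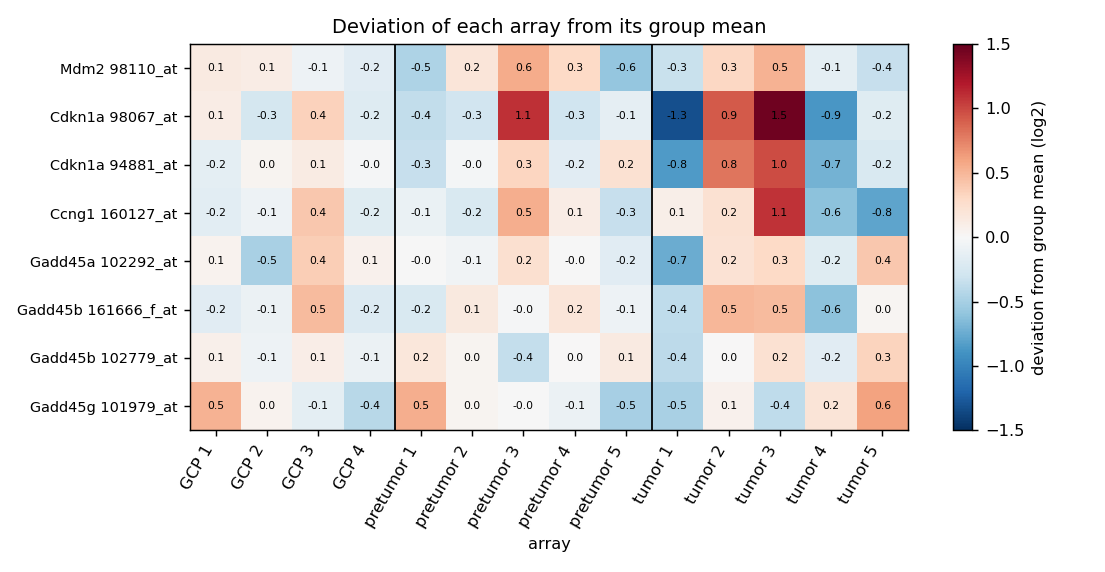
Deviation of each array (x axis) from its stage mean, in log2 units, for each member probe set (y axis), with red for higher and blue for lower. The red cells of pretumor 3 and tumor 3 cover Mdm2, Cdkn1a and Ccng1, and tumor 1 is blue for both probe sets of Cdkn1a and for Gadd45a.

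The 4 GCP arrays resembled each other in pairs, which bears on every comparison with GCP. GCP 1 correlated with GCP 2 at 0.9977 and GCP 3 with GCP 4 at 0.9975 over all probe sets, against 0.9939 to 0.9956 across these pairs. Of the probe sets for RNA quality, the log2 ratio of 3′ over 5′ signal for Gapdh was 0.46 and 0.56 in the first pair and -0.018 in both arrays of the second. For actin it was 4.02 and 4.27 in the first pair and 3.96 and 4.18 in the second, which do not separate the pairs, and it ran from 3.93 to 4.87 over all arrays. With each pair averaged to 1 sample, limma called 0 member probe sets in each comparison. The median intensity of the 14 arrays ran from 4.12 to 4.39. The ratio for Gapdh ran from 0.0056 to 1.08 in pretumor and from 0.15 to 0.42 in tumor samples. The lowest pretumor value was that of pretumor 3, and the next was 0.19 in pretumor 5. Tumor 3 had 0.39. The part of RNA quality in the member values of GCP 3, pretumor 3 and tumor 3 was not tested.

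Immediate early and heat shock genes, which cells switch on during stress and also during dissociation of tissue, were higher in the stages in which Mdm2 and Gadd45b were higher. Of 15 such genes, 7 were called higher in pretumor than in GCP samples and 6 higher in tumor than in GCP samples, and 0 were lower in either. Over all genes, 2.00% and 1.70% were called higher. Their summed intensity ran from 35971 to 45466 in pretumor and from 38278 to 50932 in tumor samples, against 18404 to 27687 in GCP samples. 1 of them lay in the low band in all stages. Within stages their mean log2 level was not highest where most members were. It was 9.90 in tumor 3, against 10.12 to 10.21 in the other tumor samples, and 9.60 in pretumor 3, against 9.56 to 10.16 in the other pretumor samples. Among GCP samples it was 8.917 in GCP 3, below GCP 1 only, and lowest in GCP 4, at 8.302. GCP 4 also had the lowest value of its stage for 5 of 8 member probe sets. Tumor 1, likewise lowest for 5 of 8, had 10.138, which was not the lowest level among tumor samples. Of 12 microglia and macrophage markers, 2 were called higher in each later stage than in GCP and 8 lay in the low band. Their summed intensity ran from 808 to 1358 in pretumor and from 631 to 1891 in tumor samples, against 150 to 378 in GCP samples. Ctss and Lyz2, the 2 called, are the brightest of these markers and weigh most in that sum. Of 7 oligodendrocyte markers, 3 were higher in pretumor than in GCP samples, with 3 in the low band, 1 was lower in tumor than in GCP samples, and the summed intensity was 230 to 535 in pretumor and 109 to 164 in tumor samples, against 165 to 254 in GCP samples. Of 7 astrocyte markers, 3 of them in the low band, 1 was higher and 1 lower in pretumor than in GCP samples, and 4 were lower in tumor than in GCP samples. Their summed intensity was 1157 to 1849 in pretumor and 440 to 1873 in tumor samples, against 9325 to 12909 in GCP samples. Such sums weigh the brightest genes most. Fabp7, the brightest here, stood at 13.24, 9.78 and 9.40 log2 intensity in GCP, pretumor and tumor samples. In pretumor against GCP only Fabp7 was called lower, and Aldoc, in the low band, was called higher. Of 7 endothelial markers, 6 of them in the low band, 4 were lower in pretumor and 5 lower in tumor samples, each against GCP. Their summed intensity was 41.6 to 59.5 in pretumor and 25.97 to 39.7 in tumor samples, against 82.2 to 117 in GCP samples. Of 8 markers of granule cell precursors and neurons, 3 of them in the low band, 2 were lower in each later stage, with summed intensities of 8060 to 11473 in pretumor and 8555 to 12596 in tumor samples, against 14447 to 16919 in GCP samples. Of 5 blood markers, 2 were lower in tumor than in GCP samples and 0 were called in pretumor against GCP, with summed intensities of 749 to 3420 in pretumor and 18.4 to 392 in tumor samples, against 1924 to 4376 in GCP samples. Of 7 markers of choroid plexus and meninges, 2 were higher and 2 lower in pretumor, and 2 lower in tumor samples, against GCP. Their summed intensity was 5638 to 14911 in pretumor and 39.5 to 1211 in tumor samples, against 671 to 3324 in GCP samples. Ttr weighs most in that sum and was not called. It stood at 10.77 ± 1.05, 12.92 ± 0.63 and 7.01 ± 3.37 log2 intensity in GCP, pretumor and tumor samples (SD). Of 11 markers of dividing cells, 2 were lower in pretumor than in GCP samples and 0 were called in tumor against GCP. Their summed intensity was 5085 to 7963 in pretumor and 4694 to 8111 in tumor samples, against 6087 to 6955 in GCP samples. The part of any of these in the levels of Mdm2 and Gadd45b was not tested.

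The wider p53 and Gadd45 pathways showed few called genes. The 6 lists hold 82 measured genes besides the members. In pretumor against GCP 3 of them were higher (3.66%) and 3 lower (3.66%), against 2.00% and 3.27% of all genes. In tumor against GCP 2 were higher (2.44%) and 1 lower (1.22%), against 1.70% and 3.94% of all genes. In tumor against pretumor 0 of 82 were called, against 1.10% of all genes in either direction. The median log2 difference of the 82 genes was 0.042, 0.12 and 0.058 in these 3 comparisons, against -0.013, 0.0030 and 0.018 over all genes.

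Of 12 regulators and relatives of p53, none was called in limma in the 3 comparisons, with 1, 3 and 3 at an unadjusted p under 0.05, against 18.0%, 18.0% and 12.3% of all genes. Ybx1, a Y-box protein that binds p53 and has the highest mean of that list, stood at 9.44 ± 0.08, 9.51 ± 0.21 and 9.26 ± 0.06 log2 intensity in GCP, pretumor and tumor samples (SD). Of 18 damage sensors and kinases, 7 lay in the low band. In the 3 comparisons 1, 2 and 2 of the 18 had an unadjusted p under 0.05, against the same shares of all genes. Of the 18, 1 was called. This was Prkdc, the catalytic subunit of DNA-dependent protein kinase, which rose by 0.36 on the log2 scale in pretumor against GCP within the low band (limma adjusted p = 0.00568), a call that ended with averaged GCP pairs (limma adjusted p = 0.0706). Of 17 p53 targets in arrest and repair, none was called, with 1, 4 and 2 at an unadjusted p under 0.05, against the same shares of all genes. Pcna, the replication clamp that p21 and the Gadd45 proteins bind, stood at 10.76 ± 0.22, 10.62 ± 0.42 and 10.90 ± 0.29 (SD). Of 20 listed p53 targets in cell death only 10 were measured, and Bax, Bbc3 and Pmaip1 were not among them. Of the 10 measured, 6 lay in the low band. In the 3 comparisons 2, 3 and 3 of the 10 had an unadjusted p under 0.05, against the same shares of all genes. Of the 10, 1 was called, and it fell. This was Tnfaip8, known as an opponent of cell death, which was 2.56-fold lower in pretumor than in GCP samples (limma adjusted p = 0.0122) and 2.48-fold lower in tumor than in GCP samples (limma adjusted p = 0.0139). Its tumor call ended in limma without GCP 4 (adjusted p = 0.0515) and with the compared groups fitted alone. With averaged GCP pairs both calls ended in limma (adjusted p = 0.11 for pretumor and 0.115 for tumor).

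Of 16 partners of p21 and the Gadd45 proteins, 5 of them in the low band, 2 fell in pretumor and 1 rose in tumor samples, each against GCP. Over all genes, 3.27% were called lower in pretumor and 1.70% higher in tumor samples. In the 3 comparisons 5, 5 and 5 of the 16 had an unadjusted p under 0.05. The shares of all genes were 18.0%, 18.0% and 12.3%. Mapk8, the kinase JNK1 that acts below Map3k4, was 1.39-fold lower in pretumor samples (limma adjusted p = 0.0154), a call that ended in limma without GCP 4 (adjusted p = 0.0531) and with averaged GCP pairs (0.125). Cdk1, the mitotic kinase, was 1.22-fold lower in pretumor samples (limma adjusted p = 0.0473), and Map2k6, a kinase that activates p38, was 1.74-fold higher in tumor samples (limma adjusted p = 0.0484). Leaving out any 1 of 10 arrays ended the call of Cdk1, and leaving out any 1 of 13 ended that of Map2k6. Of all 24 alternatives, 18 ended the call of Cdk1 and 18 that of Map2k6. Both calls ended with the floor of 16, the groups fitted alone, the replicate block and averaged GCP pairs. That of Cdk1 also ended with quantile normalisation, the filter on dim probe sets and the trended prior. Of 10 other genes of the growth arrest and DNA damage group, 4 of them in the low band, 2 rose in pretumor and 1 in tumor samples. Over all genes, 2.00% and 1.70% were called higher. At an unadjusted p under 0.05 the counts were 2, 4 and 1 of 10, against the same shares of all genes as above. Atf3, a stress-induced transcription factor that is also on the immediate early list, was 3.92-fold higher in pretumor than in GCP samples (limma adjusted p = 0.00186) and 2.97-fold higher in tumor than in GCP samples (limma adjusted p = 0.00648). Ppp1r15a, known as Gadd34, which ends the stress block of translation, rose by 0.88 on the log2 scale in pretumor samples within the low band (limma adjusted p = 0.0405). Leaving out any 1 of 10 arrays ended that call, and 14 of 22 alternatives did in all, averaged GCP pairs among them. The median log2 difference of these 10 genes was 0.43 for pretumor and 0.49 for tumor samples, each minus GCP.

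**Figure D5:**
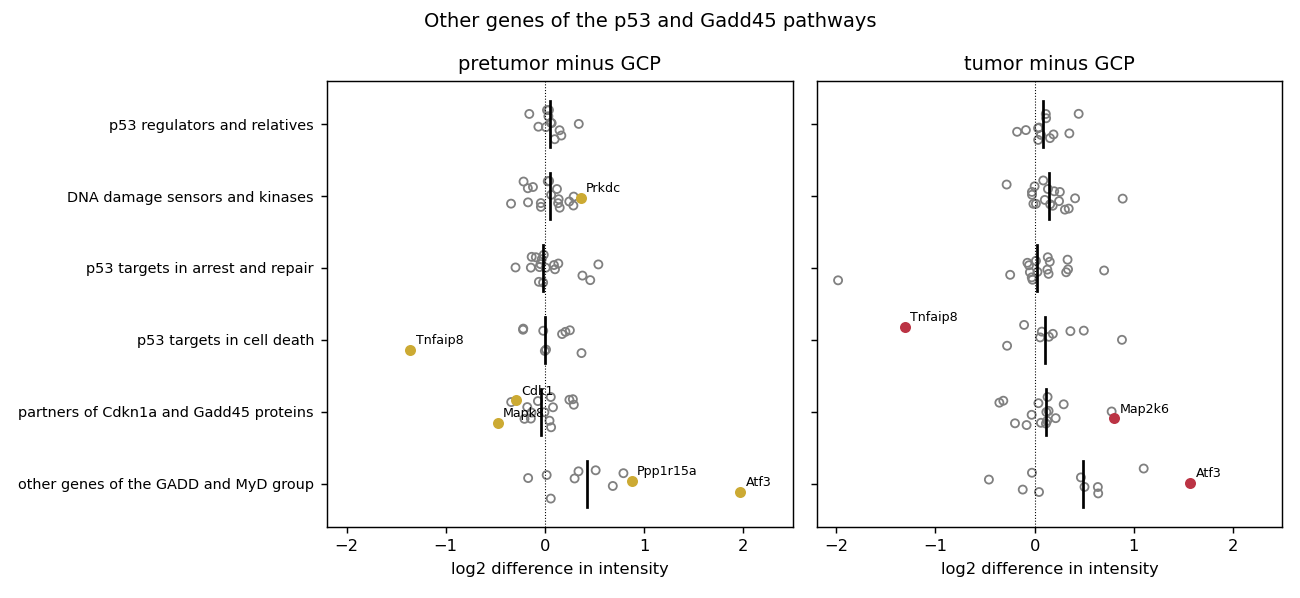
Log2 difference in intensity (x axis) of each measured gene of 6 pathway lists (y axis) in pretumor minus GCP (left) and tumor minus GCP (right), with filled named points for called genes and bars for list medians. Members stand in none of the lists, and the list of other growth arrest and damage genes has the highest medians, 0.43 and 0.49.

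For 5 members the genes with the most similar levels over the 14 arrays were looked up among 3035 other genes with a mean intensity of 16 or more. The measure was Pearson's r of log2 intensity, which here also carries the stage differences and is a description. Closest to Mdm2 were Tiparp (r = 0.931), Ugcg (r = 0.896) and Il17ra (r = 0.893). Tiparp, a poly-ADP-ribose polymerase induced by dioxin, stood at 3.68 ± 0.11, 5.73 ± 0.53 and 5.32 ± 0.60 log2 intensity in GCP, pretumor and tumor samples (SD). Closest to Ccng1 were Znrf2 (r = 0.931), Cxcl2 (r = 0.921) and Nfkbia (r = 0.867). Cxcl2 is a chemokine that draws neutrophils, and Nfkbia encodes the inhibitor of NF-kB. Cxcl2 stood at 2.51 ± 0.64, 3.70 ± 0.89 and 5.09 ± 1.58 (SD). Closest to Gadd45a were Rnf149 (r = 0.897), Nsmce3 (r = 0.812) and Ero1b (r = 0.808). Closest to Gadd45b were Ero1b (r = 0.936), Cebpd (r = 0.918) and Pqlc3 (r = 0.903), so Ero1b is near both. Cebpd, a transcription factor of the acute phase response, stood at 4.77 ± 0.43, 6.22 ± 0.26 and 7.10 ± 1.29 (SD). Closest to Gadd45g were Mrpl3 (r = 0.885), Cul2 (r = 0.871) and Mrpl23 (r = 0.804), which differ from those of its relatives. Cdkn1a was left out because both its probe sets have a mean below 16.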

How the data were processed

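Microarray expression was analysed for 14 samples. The deposited intensity table holds 1 linear intensity per probe set and array for 12488 probe sets. No source used here says how the authors summarised or normalised them. The array medians lay within 0.094 log2 units, so no further normalisation was applied. After removal of 66 control probe sets, intensities under the 10th percentile of the table (2.46) were set to it, and log2 values were fitted with limma 3.58.1 in R 4.3.3 (3 stage means, 11 residual and 0.83 prior degrees of freedom). Two-sided p-values were adjusted by Benjamini-Hochberg over 12422 probe sets. The fit was tested on simulated data. Values below 16 (70.5%) are called the low band, and no fold is given within it.

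Symbols came from the array's annotation (10833 probe sets with 1 symbol, 396 with several, 1193 with none). List genes were matched to it by symbol, or by older symbols in the GRCm38.p6 gene table, and are each represented by their brightest probe set. The members, lists and rules were chosen with earlier results of these data known. All member probe sets are named, with up to 4 called genes per list (or its brightest gene) and the 3 most similar genes per member. The number of arrays limits the precision. Same-numbered samples did not deviate together throughout, so no pairing was used. Alternatives are a floor of 16, a pseudocount of 16, quantile normalisation, a filter on dim probe sets, groups fitted alone, a replicate block, a trended prior, array weights, averaged GCP pairs and arrays left out.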

Additional observations from a re-analysis of the deposited data

Results flagged for a closer look

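Of 24 member groups, 2 held a sample far from the others by Dixon's test on log2 intensity, and chance flags about 1 group in 20. Cdkn1a (98067_at) had an intensity of 20.4 in pretumor 3, where its gap to the next sample on the log2 scale was 0.845 of the range of the group (limit 0.71). Gadd45b (161666_f_at) had an intensity of 73.2 in GCP 3, with a log2 gap of 0.831 of the range (limit 0.829).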

How the results depend on the processing

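Of 561 member values under the alternatives, 557 kept their sign, 18 lost a call and 20 gained one. Of 636 values of other named genes, 630 kept their sign, 57 lost a call and 6 gained one. The causes of these changes were not tested. Several settings leave the difference between 2 stage means as it was, so its sign could not turn there. These are groups fitted alone, the trended prior, the filter on dim probe sets, averaged GCP pairs and an array left out of the third stage. The count of kept signs is thus no measure of how firm the signs are. The count of members called in pretumor against GCP, 2, was 0 with a floor of 16 and with averaged GCP pairs, and 0 to 3 without single arrays (0 without GCP 2, GCP 4, pretumor 2 or pretumor 4). In tumor against GCP the count of 1 was 2 with quantile normalisation, 3 with the filter on dim probe sets, 3 with the trended prior, 4 with array weights, 0 with the groups fitted alone, 0 with averaged pairs and 1 to 3 without single arrays. Same-numbered samples did not deviate together throughout, with correlations of their deviations between -0.334 and 0.574. For pretumor and GCP samples these were 0.35, 0.32, 0.574 and -0.267 for replicates 1 to 4. Whether samples of the same number share a batch was not tested. With the replicate block 3 members were called in tumor against GCP, Gadd45b, Mdm2 (log2 difference 1.04, limma adjusted p = 0.0266) and Ccng1 (1.02, limma adjusted p = 0.0428), and 76 probe sets in tumor against pretumor. Over all probe sets, the 541 calls in pretumor against GCP became 194 with the floor of 16, 1508 with array weights, 168 with averaged pairs and 331 to 624 without single arrays. The 571 in tumor against GCP became 232, 998, 198 and 338 to 709, and 335 with the groups fitted alone. The 124 in tumor against pretumor became 32, 393, 69 and 70 to 148, and 50 with the groups fitted alone. Signs turned for small differences. Ccng1 in pretumor minus GCP was -0.029 without pretumor 3 and tumor 2 together, and -0.029 to 0.24 without single arrays. In tumor minus pretumor, Gadd45b was -0.061 with array weights for 161666_f_at and -0.15 to 0.036 without single arrays for 102779_at, and Tnfaip8 was -0.19 to 0.15 without single arrays. In pretumor minus GCP, Map2k6 was -0.051 to 0.18 and Ybx1 -0.010 to 0.11 without single arrays, with Ybx1 at -0.018 with array weights and -0.010 without pretumor 3 and tumor 2 together. With the floor of 16, Cdkn1a 94881_at, Gadd45b 102779_at, Ppp1r15a and Prkdc had no value, being at the floor on all arrays. Signals near the low band limit Cdkn1a, Gadd45g and the dim Gadd45b probe set.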

Other observations

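2 probe sets are annotated to Trp53-ps, a pseudogene of p53 whose sequence resembles that of Trp53, and were looked at after the members were known. Both lay in the low band on every array, between 3.16 and 5.11 for 101617_s_at and between 2.26 and 3.06 for 101618_r_at. Whether these probes also bind transcripts of Trp53 itself was not tested. Pltp, a phospholipid transfer protein on the list of p53 targets in arrest and repair, was chosen after its values were seen. It stood at 9.02 ± 0.42, 9.40 ± 0.20 and 7.04 ± 1.71 log2 intensity in GCP, pretumor and tumor samples (SD, n = 4, 5 and 5), and its difference in tumor against GCP did not pass in limma (adjusted p = 0.152). Gas5, a growth arrest transcript of the same kind of list, stood at 8.03 ± 0.29, 8.83 ± 0.36 and 9.13 ± 1.02 (limma adjusted p = 0.223 in tumor against GCP) and was also chosen after its values were seen.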
